A study of Mus musculus with 6 samples.

Results

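The 10 genes described here, Myl7, Myl4, Sln, Bmp10, Dkk3, Pam, Stard10, Tbx5, Fgf12 and Nr2f2, are known for their expression in the atria, and they were followed through mRNA-seq libraries of mouse heart. They are 10 of the 23808 genes listed, and all 10 passed the filter that left 11456 genes for testing (mean level 1 FPKM or more). They were chosen by name and on measured values: it was already known from these libraries that atrial genes vary together within each diet. That shared variation is therefore described without a test, and only the comparison of the diets is tested. The hearts came from female mice of WT genotype. Between 4 and 12 weeks of age they ate either a diet high in fat (HFD) or normal chow (NC), and each diet has 3 libraries, whose values are given in the order 1, 2, 3. Levels are in FPKM, a read number corrected for gene length and library size, so that different genes can be set side by side. The gene lengths used are unknown, so proportions between genes are less certain than their changes between libraries.

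Atria and ventricles of the mouse heart are built from different muscle proteins. Atrial myocytes use their own myosin light chains, restrain the calcium pump of the sarcoplasmic reticulum with sarcolipin rather than mainly with phospholamban, and store peptide hormones in secretory granules. Transcription factors such as TBX5 and NR2F2 (COUP-TFII) are known to set up this identity. The labels name the tissue only as heart, and they do not say how much of each chamber went into a library. In a bulk library, fewer atrial cells and less atrial RNA per cell cannot be told apart.

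The libraries carried heart muscle RNA throughout, with Tnnt2, the cardiac troponin T gene, between 2909 and 3757 FPKM on HFD and between 4045 and 4235 FPKM on NC. Summed FPKM lay between 576334 and 708120 on HFD and between 694956 and 739406 on NC, and the read depth is unknown. HFD 1 stood apart in that 6 genes, 4 of them named as mitochondrially encoded, were listed at 0 there while they exceeded 1000 FPKM in other libraries. One of the 6 was also listed at 0 in HFD 2 and NC 2. Nothing in the labels ties each library to its own animal, so the p-values rest on library-to-library spread, which may be technical.

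Myl7 and Myl4, the regulatory and essential myosin light chains of the atrium, were the most abundant of the 10 genes in 5 of the 6 libraries and spread widely within each diet. Myl7 was at 293, 93.9 and 1292 FPKM in HFD 1 to HFD 3, against 638, 36.2 and 1933 FPKM in NC 1 to NC 3. Myl4 was at 227, 87.0 and 1139.9 FPKM in HFD 1 to HFD 3, against 605, 26.2 and 1904 FPKM in NC 1 to NC 3. In both genes library 3 was the highest and library 2 the lowest of its diet, and the ranges of the diets overlapped. The 2 genes kept nearly the same proportion, Myl7 being 108 to 129% of Myl4 on HFD and 102 to 138% on NC. By GENCODE annotation of mm10, Myl7 lies on chromosome 11 from 5896637 to 5898782 (minus strand) and Myl4 on the same chromosome from 104550663 to 104595753 (plus strand).

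Sln encodes sarcolipin, a small membrane peptide that inhibits the sarcoplasmic reticulum calcium pump. Its level was 69.3, 19.9 and 328 FPKM in HFD 1 to HFD 3, against 174, 4.65 and 429.6 FPKM in NC 1 to NC 3. This is the order seen for the light chains, and Sln stood at 21.2 to 25.4% of Myl7 on HFD and at 12.8 to 27.3% on NC. The gene is on chromosome 9, from 53850164 to 53854560.

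**Figure D1:**
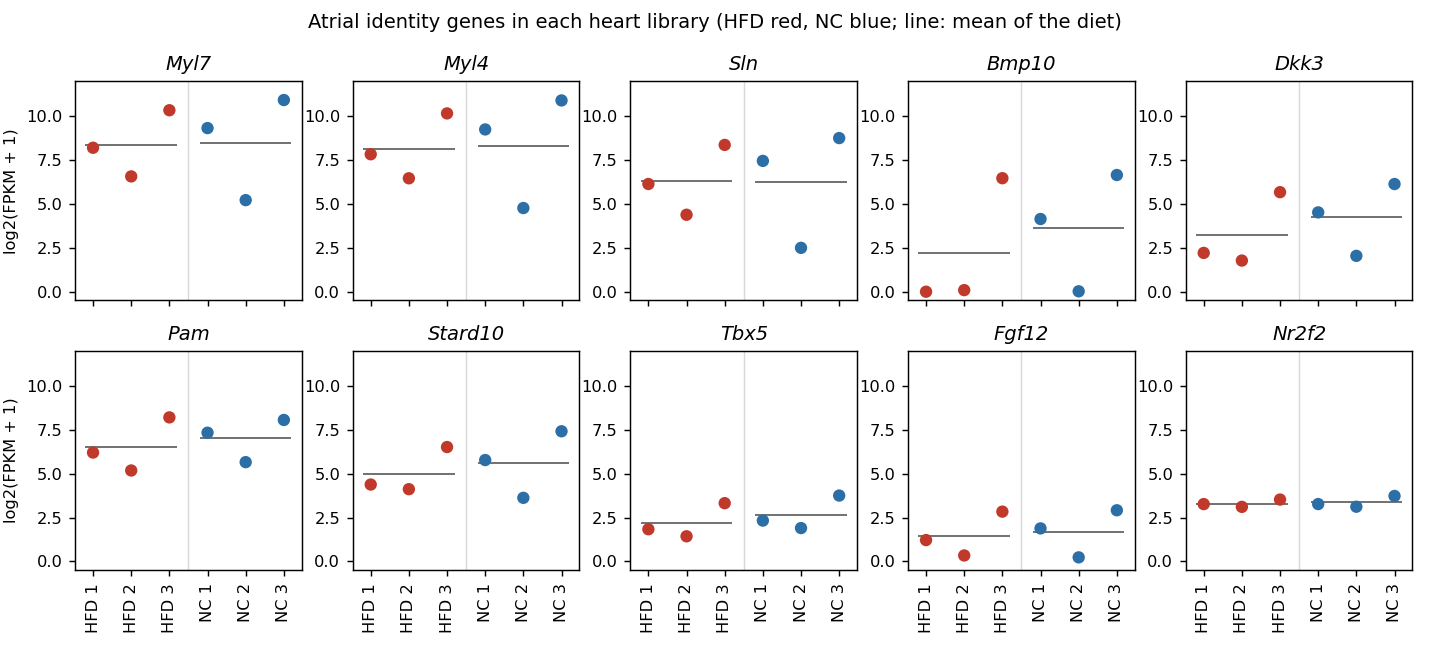
Level of each of the 10 genes in each library as log2(FPKM + 1), with HFD libraries in red on the left and NC libraries in blue on the right of each panel. Points are single libraries and lines are means of the 3 libraries of a diet. In 9 genes HFD 3 is the highest and HFD 2 the lowest HFD library, and in all 10 genes NC 3 is the highest and NC 2 the lowest NC library. Bmp10 is the gene in which HFD 1 is lowest.

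Bmp10 encodes a secreted ligand of the BMP family that is made by atrial myocytes, in the adult mouse mainly those of the right atrium, and signals to endothelial cells. It was listed at 0 in HFD 1 and was at 0.0639 and 87.4 FPKM in HFD 2 and HFD 3, against 16.6, 0.0166 and 99.2 FPKM in NC 1 to NC 3. Bmp10 was thus well above 1 FPKM in 1 HFD library and 2 NC libraries and near 0 in the others. It departed from the light chains in HFD 1, which had the second highest Myl7 of its diet. As a percentage of Myl7, Bmp10 was 0, 0.0681 and 6.76% in the HFD libraries and 2.61, 0.0457 and 5.13% in the NC libraries. An exact 0 in a table without counts can be an absent transcript or a failed estimate, and no fold is given against it.

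Dkk3, which encodes a secreted protein of the Dickkopf family, shared part of this departure. It was at 3.63, 2.42 and 49.9 FPKM in HFD 1 to HFD 3, against 21.9, 3.12 and 69.2 FPKM in NC 1 to NC 3. HFD 1 and HFD 2 lay close together, as for Bmp10, while their Myl7 values differed. Such closeness was not particular to these genes. In HFD 1 and HFD 2, Stard10 was at 19.9 and 16.4 FPKM and Tbx5 at 2.57 and 1.70 FPKM. As a percentage of Myl7, Stard10 too was lowest in HFD 1, at 6.78%. Relative to Myl7 the lowest Dkk3 was that of HFD 1, at 1.24%, and the other HFD libraries were at 2.58 and 3.86%, against 3.44, 8.62 and 3.58% in the NC libraries. After removing the diet means, Bmp10 and Dkk3 had a Pearson r of 0.996 with each other over the 6 libraries, and of 0.920 and 0.946 with Myl7. Bmp10 was near 0 in HFD 1, HFD 2 and NC 2, where adding 1 FPKM makes its values nearly alike. Differences among these libraries thus hardly enter the r of Bmp10. Bmp10 is on chromosome 6, from 87428994 to 87437677, and Dkk3 on chromosome 7, from 112116017 to 112159057.

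The windows around the annotated starts of Myl7 and Bmp10 are shown because these 2 genes followed the same libraries except HFD 1. They are RefSeq sequences (GRCm38.p6, which is mm10) from 250 bases before to 50 bases after the start, read on the strand of the gene: chr11:5898733-5899032 (minus) for Myl7 and chr6:87428744-87429043 (plus) for Bmp10. Capitals mark matches to 4 short motifs, searched on both strands: the T-box core AGGTGT, the nuclear receptor core AGGTCA, of the type bound by NR2F2, the GATA site GATAAG and the NKX2 core CAAGTG. None of these overlaps another in the windows shown.
Myl7: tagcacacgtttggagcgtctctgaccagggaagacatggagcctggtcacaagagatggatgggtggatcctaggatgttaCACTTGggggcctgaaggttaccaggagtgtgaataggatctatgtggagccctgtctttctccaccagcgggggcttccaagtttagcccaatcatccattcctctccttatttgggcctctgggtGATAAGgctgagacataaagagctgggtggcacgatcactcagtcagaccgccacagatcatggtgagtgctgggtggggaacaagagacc
Bmp10: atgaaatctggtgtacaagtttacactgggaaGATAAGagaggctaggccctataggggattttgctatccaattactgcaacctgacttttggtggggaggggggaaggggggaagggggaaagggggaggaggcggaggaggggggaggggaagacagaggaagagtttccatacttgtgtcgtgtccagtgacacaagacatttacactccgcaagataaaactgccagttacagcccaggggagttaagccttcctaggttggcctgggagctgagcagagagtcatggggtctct
In the Myl7 window the GATA site begins at position −41 relative to the start and the NKX2 core, on the opposite strand, at −168. In the Bmp10 window the GATA site begins at −218. Of 11 windows of 7 of the 10 genes, some of which overlap, 2 hold the GATA site, 1 the NKX2 core, 2 the T-box core and 1 the nuclear receptor core. The T-box and nuclear receptor matches all lie in windows of 1 gene, Fgf12, which has 4 of the 11 windows. Of all 32851 windows in the table, 7.44% hold the GATA site, 13.6% the NKX2 core, 13.7% the T-box core and 16.3% the nuclear receptor core. These matches describe the letters of the windows only.

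Pam and Stard10 had a narrower range. Pam encodes peptidylglycine alpha-amidating monooxygenase, an enzyme that amidates peptides and a major membrane protein of atrial secretory granules. It was at 72.7, 35.3 and 294 FPKM in HFD 1 to HFD 3, against 160.4, 49.5 and 266 FPKM in NC 1 to NC 3. Pam was the most abundant of the 10 genes in NC 2, the library with the least Myl7. Stard10, a lipid transfer protein of the START family, was at 19.9, 16.4 and 90.6 FPKM in the HFD libraries, against 53.8, 11.3 and 169.8 FPKM in the NC libraries. HFD 3 was 8.34-fold above HFD 2 for Pam and 5.54-fold for Stard10, and NC 3 was 5.37-fold above NC 2 for Pam and 15.0-fold for Stard10. For Myl7 the same ratios were 13.8 on HFD and 53.4 on NC. Pam spans chromosome 1 from 97795114 to 98095646, and Stard10 chromosome 7 from 101317086 to 101346626.

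Fgf12 encodes an intracellular FGF homologous factor that binds and modulates voltage-gated sodium channels. It was low, at 1.33, 0.268 and 6.16 FPKM in HFD 1 to HFD 3, against 2.69, 0.176 and 6.55 FPKM in NC 1 to NC 3. Its order of libraries was that of Myl7, and it made up 0.285 to 0.476% of Myl7 on HFD and 0.339 to 0.488% on NC, a range of 1.71-fold over the 6 libraries. The gene lies on chromosome 16 from 28160098 to 28753068.

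The transcription factor genes varied least. Tbx5, a T-box factor of atrial and conduction tissue, was at 2.57, 1.70 and 8.99 FPKM in HFD 1 to HFD 3, against 4.02, 2.74 and 12.5 FPKM in NC 1 to NC 3. HFD 3 was 5.29-fold above HFD 2 and NC 3 was 4.56-fold above NC 2, and no library fell below 1.7 FPKM. Nr2f2, which encodes a nuclear receptor of atrial myocytes and also of venous endothelium, was at 8.63, 7.64 and 10.5 FPKM in the HFD libraries, against 8.64, 7.69 and 12.3 FPKM in the NC libraries. Its order of libraries was the same as that of Myl7, but its highest and lowest libraries differed by 1.38-fold on HFD and 1.60-fold on NC. Tbx5 is on chromosome 5 from 119832668 to 119885219 and Nr2f2 on chromosome 7 from 70351944 to 70366735. Exons of Nr2f2 overlap those of B130024G19Rik on the opposite strand, those of Myl4 overlap Gm22000 on the opposite strand and those of Pam overlap B230216N24Rik on the same strand. The same holds on the opposite strand for Nppa and Gm13054, Myl2 and Ccdc63, Myl3 and Pth1r, and Pln and Cep85l. How the counting treated strand is not stated, so reads of such pairs may not be told apart.

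Set on one scale, the deviations of log2(FPKM + 1) from the mean of the diet showed largely 1 pattern with different amplitudes, from which Bmp10 departed in HFD 1. The mean of the 10 genes deviated by −0.54, −1.33 and 1.87 in HFD 1 to HFD 3 and by 0.41, −2.21 and 1.80 in NC 1 to NC 3, an SD within diet of 1.86. Each gene had an r between 0.922 (Nr2f2) and 0.993 (Fgf12) with the mean of the other 9 over the 6 libraries. These points share their libraries and have 4 degrees of freedom once the diet means are removed, and they are given as a description. Among the 45 pairs of genes r ranged from 0.843 for Sln and Tbx5 to 0.999 for Myl7 and Myl4, with a median of 0.945. The SD within diet was widest for Bmp10, at 3.53, and narrowest for Nr2f2, at 0.27, where the median over all tested genes was 0.28. The other 8 genes had SDs between 0.98 (Tbx5) and 2.73 (Sln), each larger than in at least 99.1% of tested genes. The median FPKM of all tested genes also differed between libraries. It was 4.85, 5.57 and 6.42 in HFD 1 to HFD 3 and 5.92, 4.98 and 5.92 in NC 1 to NC 3. How far such library-wide shifts enter the small deviations of Nr2f2 was not tested.

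**Figure D2:**
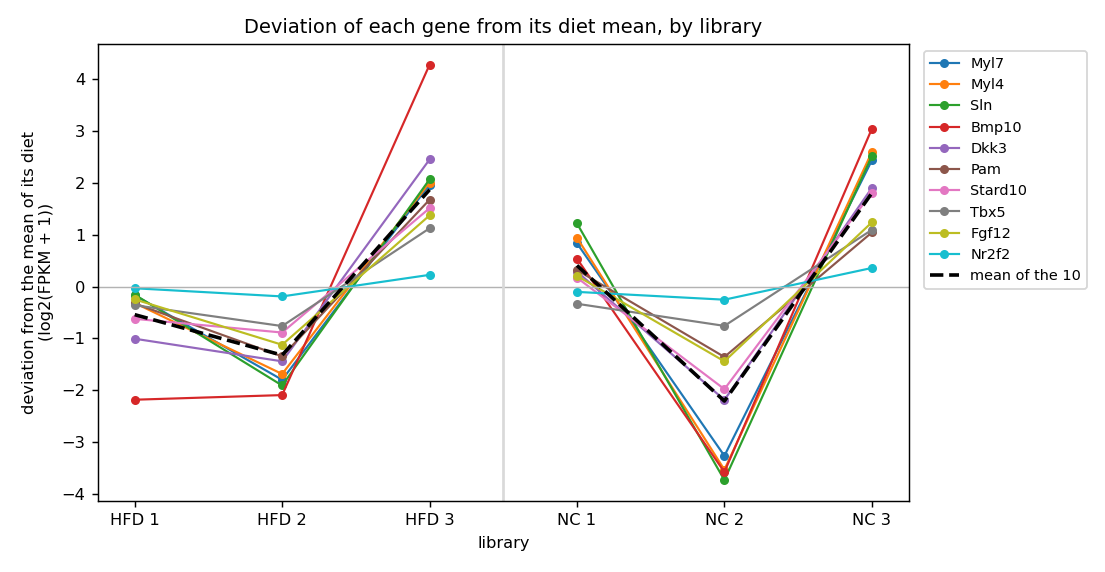
Deviation of each gene from the mean of its diet (log2(FPKM + 1), y axis) in each library (x axis, HFD on the left and NC on the right). Coloured lines join the 3 libraries of a diet for 1 gene, and the dashed line is the mean of the 10 genes. The lines are lowest in HFD 2 and NC 2 and highest in HFD 3 and NC 3, except that Bmp10 is about as low in HFD 1 (−2.19) as in HFD 2 (−2.10).

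Relative to the ventricular light chain genes, and for Sln to the phospholamban gene Pln, the atrial genes took very different shares in different libraries. Myl7 was 2.85, 0.834 and 13.3% of the summed FPKM of Myl7 and Myl2, the ventricular regulatory light chain, in HFD 1 to HFD 3, against 4.49, 0.237 and 17.3% in NC 1 to NC 3. For Myl4 and its ventricular counterpart Myl3, the share of Myl4 was 7.03, 2.28 and 25.7% in the HFD libraries, against 13.9, 0.617 and 37.0% in the NC libraries. In both pairs the highest share was that of NC 3 and the lowest that of NC 2, on either side of all HFD libraries. The share of Sln among Sln and Pln, the phospholamban gene, was 6.40, 3.14 and 20.7% in the HFD libraries and 13.7, 0.423 and 36.9% in the NC libraries.

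**Figure D3:**
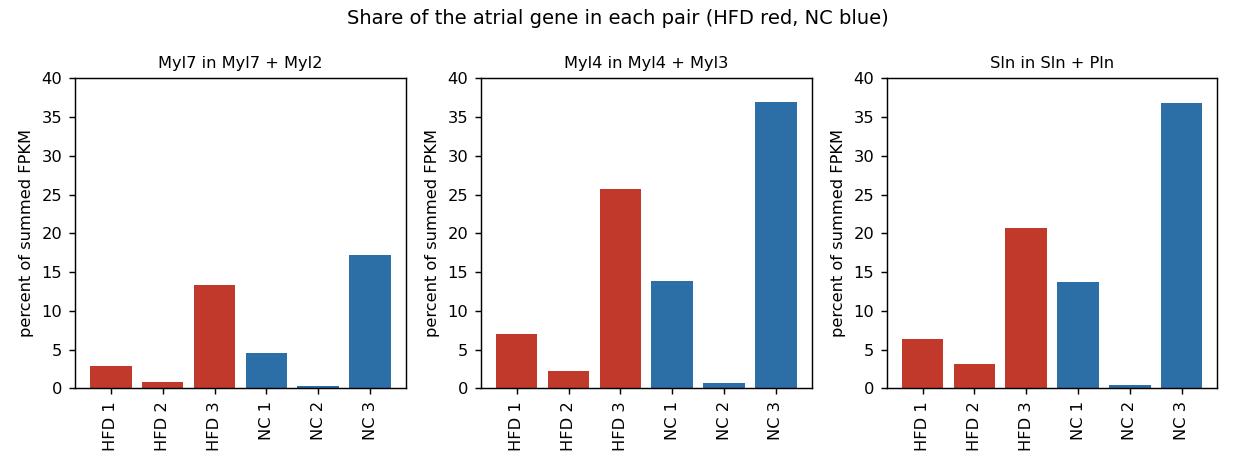
Percent of the summed FPKM of a gene pair that the atrial gene takes in each library, for Myl7 with Myl2, Myl4 with Myl3 and Sln with Pln. Bars are single libraries, HFD in red on the left and NC in blue on the right, and all axes start at 0. The shares are highest in HFD 3 and NC 3 and lowest in HFD 2 and NC 2.

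Of 15 other genes known for higher levels in atria, 13 were tested, and 8 of them had an r over 0.9 with the mean of the 10 genes, a level that 6.26% of all tested genes reached. These 8 were Nppa, Mybphl, Gja5, Kcnj3, Kcnj5, Sbk2, Cacna2d2 and Angpt1. Among tested genes with an SD within diet of at least 1, 43.8% reached that level, 8 of the 10 genes included. Nppa, the gene of atrial natriuretic peptide, was at 941, 227 and 4185 FPKM in HFD 1 to HFD 3 and at 2072, 277 and 9404 FPKM in NC 1 to NC 3 (r = 0.983). Mybphl, an atrial myosin-binding protein gene, was at 16.9, 3.85 and 91.8 FPKM in the HFD libraries and at 43.2, 2.40 and 159 FPKM in the NC libraries (r = 0.990). Gja5, the connexin 40 gene of atria and conduction tissue, ran lower, at 2.72, 2.07 and 6.51 FPKM on HFD and 5.32, 1.73 and 8.45 FPKM on NC (r = 0.998). The other 5 tested genes did not follow as closely. Kcna5, an atrial potassium channel gene, had an r of −0.430 and was at 7.31, 7.74 and 7.97 FPKM in the HFD libraries and at 8.45, 7.29 and 4.16 FPKM in the NC libraries. Nr2f1, a relative of Nr2f2, had an r of 0.239, Kcnk3 0.684, Hey1 0.691 and the muscarinic receptor gene Chrm2 0.790.

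Ventricular genes did not mirror the pattern as a group. Of 9 tested, 6 had an r below 0, as 22.6% of all tested genes did, and none had one above 0.9, with a median of −0.08 against 0.41 over all tested genes. Myl2 had an r of −0.904 and was at 10006, 11155 and 8409.5 FPKM in HFD 1 to HFD 3, against 13578, 15202 and 9273 FPKM in NC 1 to NC 3. Its HFD and NC libraries overlapped, and library 3 was the lowest of each diet. Myl3 had an r of −0.701, while the ventricular factor gene Irx4 had one of −0.211, Myh7 of −0.07, Irx5 of −0.10, Fhl2 of −0.08, Kcnip2 of 0.04, Kcnj2 of 0.282 and Hey2 of 0.878. Hand1 stayed below 0.3 FPKM.

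Partners of the 10 genes in calcium handling, BMP signalling and secretion were looked at next, again without a test. For comparison, 6.26% of all tested genes had an r over 0.9. Of 4 tested pumps and regulators related to Sln, none had an r over 0.9. Pln was at 1014, 612 and 1253 FPKM in the HFD libraries and 1097, 1096 and 736 FPKM in the NC libraries, and Atp2a2, the cardiac calcium pump gene, at 847, 571 and 1304 FPKM on HFD and 892, 754 and 795 FPKM on NC. Of 13 tested receptors, SMADs and targets of BMP10 signalling, 2 had an r over 0.9, Smad6 (0.951) and Id2 (0.972), which were named after their values were seen. Smad6, an inhibitory SMAD induced by BMP signals, was at 4.09, 4.84 and 8.83 FPKM in the HFD libraries and 6.33, 3.13 and 11.8 FPKM in the NC libraries. Id1, another known BMP target, ran the other way (r = −0.772), at 89.6, 147 and 86.1 FPKM on HFD and 96.5, 136 and 99.2 FPKM on NC. Among granule and hormone processing genes 4 of 12 were tested and 2 had an r over 0.9. Corin, the protease that activates atrial natriuretic peptide, had an r of 0.950 and Cpe, carboxypeptidase E, one of 0.938, while Pcsk6, a proprotein convertase gene, had one of 0.362. Corin was at 18.3, 20.6 and 33.7 FPKM in the HFD libraries and 24.0, 10.1 and 29.1 FPKM in the NC libraries. Fgf13, a relative of Fgf12, had an r of 0.479.

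The 12 genes most like the mean of the 10, among 489 genes at a mean level of 5 FPKM or more whose SD within diet reached 0.5, were in order of r Sfrp2 (0.999), Gng2 (0.997), Lrp1 (0.996), Prkag2 (0.995), Tbc1d1 (0.993), Ccdc80 (0.992), Igfbp4 (0.991), Ahsg (0.990), Mybphl (0.990), Ccn2 (0.989), Mlana (0.986) and Slc17a7 (0.984). Nppa came 13th. Sfrp2, a secreted modulator of Wnt signals, was at 2.01, 1.12 and 6.75 FPKM in HFD 1 to HFD 3 and at 8.59, 2.12 and 17.1 FPKM in NC 1 to NC 3. Mlana, a melanosome protein gene, was at 1.61, 1.08 and 19.2 FPKM in the HFD libraries and at 4.88 and 31.6 FPKM in NC 1 and NC 3, and was listed at 0 in NC 2. Of the 96 tested genes with an SD within diet of at least 1, 42 (43.8%) had an r over 0.9. Both counts include 8 of the 10 genes, which are part of the mean they are compared with. Among 4639 genes at a mean level of 5 FPKM or more whose SD reached 0.2, the 8 least like the mean were the complex I gene Ndufs8 (r = −0.972), Fam162a (−0.953), the endothelial factor gene Sox18 (−0.949), Tgtp1 (−0.938), Isg15 (−0.935), Phf11d (−0.930), Ifitm3 (−0.930) and Rpa3 (−0.928). Of these, Tgtp1, Isg15, Phf11d and Ifitm3 are known interferon-stimulated genes.

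**Figure D4:**
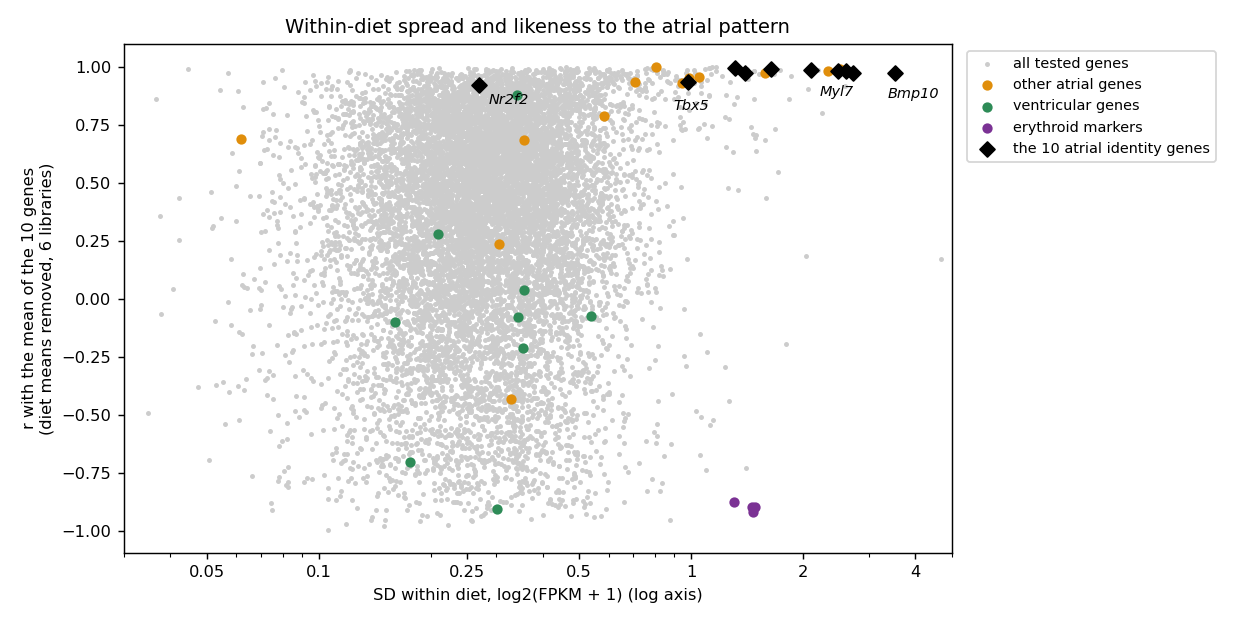
SD within diet (x axis, log scale, of log2(FPKM + 1)) against Pearson r with the mean of the 10 genes over the 6 libraries (y axis, diet means removed) for tested genes within the axis range. Genes beyond the range, such as mt-Co2 (SD 6.15), are not shown. Diamonds are the 10 atrial identity genes, which are part of the mean they are plotted against, and coloured points are other atrial genes, ventricular genes and erythroid markers. Apart from Nr2f2 (SD 0.27), the diamonds lie at an SD of 0.98 or more and an r above 0.9, while the erythroid markers lie at an r near −0.9.

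Markers of some other cell types moved with the atrial genes, and their part in the pattern was not tested. Of 5 tested endocardial markers 4 had an r over 0.9, and the summed level of the 7 listed was 51.0, 34.8 and 108 FPKM in HFD 1 to HFD 3 and 80.0, 38.9 and 119.7 FPKM in NC 1 to NC 3. Valve markers did so in 4 of 6, with sums of 17.1, 14.5 and 44.3 FPKM on HFD and 40.9, 26.0 and 76.5 FPKM on NC, and fibroblast markers in 7 of 10, with sums of 783, 795 and 1361 FPKM on HFD and 1359, 757 and 1494 FPKM on NC. Erythroid markers went the opposite way in 5 of 5, with sums of 7428, 13371 and 1241 FPKM in the HFD libraries and 5742, 8294 and 2025 FPKM in the NC libraries. Endothelial markers had an r below 0 in 8 of 10, against 22.6% of all tested genes. Over 0.9 were also 3 of 5 tested epicardial, 3 of 10 smooth muscle and 1 of 4 Schwann cell markers, and none of the macrophage, skeletal muscle or adipocyte markers. Over all tested genes the share above 0.9 was 6.26%. The epicardial marker Wt1 went the other way (r = −0.626). The adipocyte markers summed to 22.3, 35.7 and 77.3 FPKM on HFD and 84.4, 22.2 and 70.9 FPKM on NC, so that NC 1 and not NC 3 was highest. Of 5 tested sinoatrial and conduction genes 1, Cntn2, named after its values were seen, had an r over 0.9. None of the lung or thymus markers reached a mean of 1 FPKM, the surfactant gene Sftpb was listed at 0 in all 6 libraries, and the lung markers summed to 0.345 to 0.994 FPKM on HFD and 1.08 to 1.62 FPKM on NC. Structural and nuclear noncoding RNAs summed to 543, 1552 and 2338 FPKM in the HFD libraries and 707, 659 and 1635 FPKM in the NC libraries.

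The diets were then compared, to ask whether the atrial genes differ between hearts on HFD and NC. None of the 10 genes passed (limma, Benjamini-Hochberg adjusted p = 0.9998 for each), in a fit in which 0% of 11456 genes passed at an adjusted p of 0.05. At an unadjusted p of 0.05 likewise none of the 10 was called, against 3.62% of all tested genes. In all 10 genes the ranges of the diets overlapped, while 8.13% of all tested genes had ranges that did not. Log2 fold changes were below 0 in 9 of 10 genes and in 6083 of all 11456 tested genes, with medians of −0.34 and −0.02. The 10 genes varied together over the libraries, so their signs are not separate observations. After quantile normalization, or after rescaling each library to the same sum, 7 of the 10 were below 0. The median over all tested genes then moved from −0.02 to 0.01 and 0.09, respectively. None of the 13 other atrial and 9 ventricular genes passed either. Nr2f1 was at 1.07, 0.646 and 1.06 FPKM in HFD 1 to HFD 3, against 1.64, 2.88 and 3.42 FPKM in NC 1 to NC 3, with no overlap between the diets, and had a log2 fold change of −0.90 (limma adjusted p = 0.885).

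Intervals were wide for the genes that varied most within a diet. Myl7 averaged 560 ± 642 FPKM on HFD and 869 ± 969 FPKM on NC (SD, n = 3 each), and its log2 fold change was −0.12 (SE 1.17, 95% interval −2.67 to 2.44). For Myl4 it was −0.15 (SE 1.23), for Sln 0.06 (SE 1.29), for Bmp10 −1.42 (SE 1.67, −5.05 to 2.21) and for Dkk3 −1.01 (95% interval −3.20 to 1.17). Pam, Stard10, Tbx5 and Fgf12 had log2 fold changes of −0.49 (SE 0.68), −0.60 (SE 0.79), −0.46 (SE 0.50) and −0.21 (SE 0.65). Nr2f2 had the narrowest interval, at 8.93 ± 1.47 FPKM on HFD and 9.53 ± 2.42 FPKM on NC (SD, n = 3 each), and its log2 fold change was −0.07 (SE 0.24, −0.59 to 0.44). Leaving out 1 library turned the sign in 9 of the 10 genes, Dkk3 being the exception. Without NC 3, 1 of 10 genes was lower on HFD, and without NC 2 all 10 were, with medians of 0.21 and −1.67. Without HFD 3 all 10 were lower (median −1.13), and without HFD 2 the number was 4 (median 0.11). Without HFD 1 it was 8 (−0.19), and without NC 1 it was 7 (−0.23). Without NC 2 the unadjusted p (limma) was under 0.05 for Myl7, Myl4, Sln, Bmp10, Dkk3 and Stard10. The lowest was 0.0151 for Stard10 (limma adjusted p = 0.951). Without HFD 3 the unadjusted p was under 0.05 for Bmp10 (0.0368) and Dkk3 (0.0367), and without any other library for none of the 10.

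A second fit carried the mean log2(FPKM + 1) of the 13 tested other atrial genes as a covariate. That mean was 3.25, 2.61 and 4.37 in HFD 1 to HFD 3 and 3.86, 2.78 and 4.47 in NC 1 to NC 3. The covariate comes from the same libraries and was itself lower on HFD, averaging 3.41 against 3.70 on NC (difference −0.29). Fold changes in this fit are therefore those left after the covariate, with a slope fitted for each gene. They are not ratios to the other atrial genes. The covariate also averages in genes that followed the pattern less closely, such as Nr2f1 (log2 fold change −0.90 without the covariate). With the covariate the standard errors of the 10 genes lay between 0.21 and 0.51, and 5 genes were lower and 5 higher on HFD. The log2 fold change was 0.68 (SE 0.35, 95% interval −0.07 to 1.44) for Myl7, 0.68 (SE 0.40, −0.18 to 1.54) for Myl4 and 0.93 (SE 0.43, 0.01 to 1.86) for Sln. It was −0.28 (SE 0.51) for Bmp10, −0.33 (SE 0.28) for Dkk3 and −0.02 (SE 0.21) for Pam. None of the 10 passed in this fit either (limma adjusted p = 0.997 for Sln), where 0% of all tested genes did. At an unadjusted p of 0.05, 1 of the 10 was called, Sln (0.0485), against 4.2% of all tested genes.

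**Figure D5:**
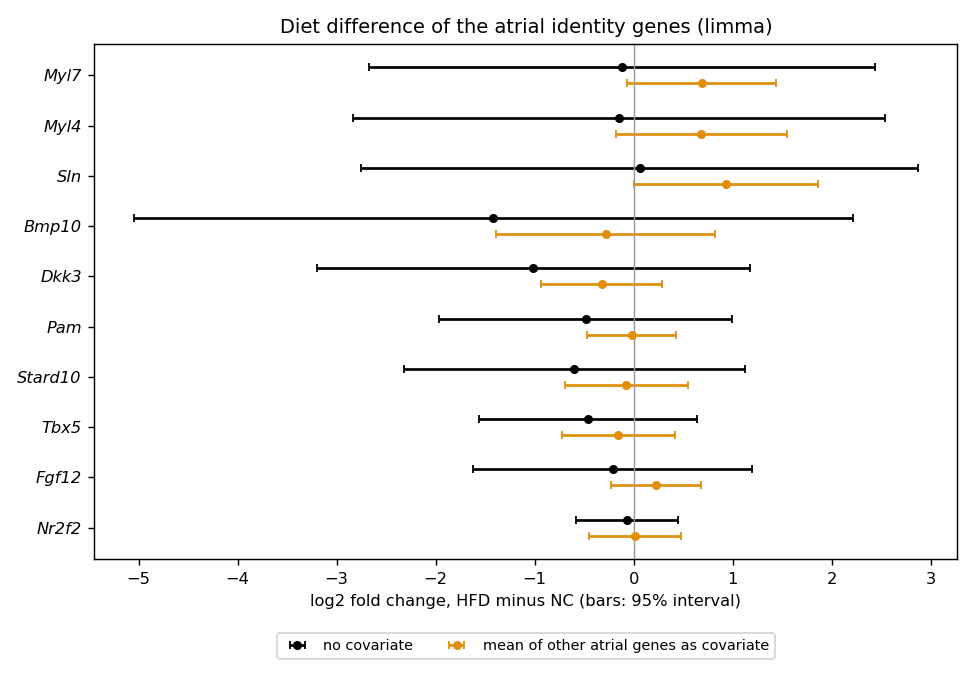
Log2 fold change of each of the 10 genes, HFD minus NC on the log2(FPKM + 1) scale, with 95% intervals from limma. Black points are the fit without a covariate and orange points the fit with the mean of 13 other atrial genes as a covariate. All black intervals include 0, and the orange interval of Sln runs from 0.01 to 1.86.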

How the data were processed

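The labels describe total RNA from Trizol extraction and a VAHTS mRNA-seq kit. The authors deposited 1 table of FPKM for all libraries. Neither the program behind these values nor read depth or strand use is stated. The submitters' processing notes list, among others, mm10, HISAT2 2.2.1 (an aligner), HTSeq 0.13.5 (a read counter) and Trimmomatic 0.38 (a read trimmer), with no order or parameters. Symbols were matched by gene identifier for 23718 of 23808 genes. Values were taken as log2(FPKM + 1), which understates changes of low genes, and fold changes are on that scale. For the diet comparison, limma 3.58.1 (R 4.3.3) was run two-sided with eBayes and its trend option, and p-values were adjusted by Benjamini-Hochberg over 11456 genes at a threshold of 0.05. The code was first tested on simulated data. No read numbers were derived, so counting intervals are left out. Likeness is Pearson r after removing diet means.

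The genes, lists and tests were chosen with earlier results of these data known. Named were the 10 genes, the other atrial and ventricular genes, the 12 most and 8 least alike, leaving out predicted genes, and up to 3 of the most abundant genes of each further list, unless stated. Alternatives were 2 pseudocounts, 2 filters, 3 scalings, 2 eBayes settings, library weights, a replicate block, a covariate, another threshold and each library left out. Plots used matplotlib 3.10.9 (Python 3.11.15).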

Additional observations from a re-analysis of the deposited data

How the results depend on the processing

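No gene of the 10 passed in any setting except the replicate block, outside of which their lowest adjusted p (limma) was 0.834. Same-numbered libraries of the diets had correlations of their deviations over all tested genes of 0.193, 0.0864 and 0.275, so the numbers were not taken to pair them, and 3 of 6 libraries correlated best with their own number. With the replicate block 73 genes passed, against 0, and 2 of the 10, Bmp10 (log2 fold change −1.42, limma adjusted p = 9.64e-05) and Dkk3 (−1.01, limma adjusted p = 0.0269). That fit has 2 residual degrees of freedom and an infinite prior, so a gene's own spread did not enter its p. Without NC replicate 2, 1 gene passed, none of the 10, and the count ranged from 0 to 1 when a library was left out. At an unadjusted p of 0.05 the number of genes was 415, and 765 with no filter, 226 with a mean of at least 5 FPKM and 677 without HFD 3. Signs turned to 0.085 (Myl7) and 0.014 (Myl4) after quantile normalization, to 0.017 (Myl7) and 0.049 (Nr2f2) after rescaling to a sum, to −0.016 (Sln) with library weights, and to 0.68 (Myl7), 0.68 (Myl4), 0.23 (Fgf12) and 0.012 (Nr2f2) with the covariate. The median over all tested genes was −0.02 in the main fit, 0.01 after quantile normalization and 0.09 after rescaling to a sum. It was −0.05 with library weights and 0.02 with the covariate. The cause of these turns was not tested. Leaving out 1 library gave log2 fold changes of −1.75 to 1.10 for Myl7, −1.92 to 1.14 for Myl4, −1.81 to 1.32 for Sln, −3.56 to 0.10 for Bmp10, −2.24 to −0.06 for Dkk3, −1.32 to 0.19 for Pam, −1.59 to 0.30 for Stard10, −1.03 to 0.082 for Tbx5, −0.93 to 0.41 for Fgf12 and −0.20 to 0.11 for Nr2f2. Between 8 and 10 of the 10 genes kept an r over 0.9 with the mean of the others in every alternative run on it, and the SD within diet of their mean lay between 1.47 and 2.17, against 1.86. Fgf12 fell below the filter of 5 FPKM. Read depth is unknown, which limits what values near 0, such as those of Bmp10, can show.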
